A study of Mus musculus with 20 samples.

Results

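Toll-like receptors and their co-receptor Cd14 were described in brain monocytes and microglia of mice 3 days after permanent photothrombosis, in which light and a photosensitive dye are used to block vessels of the cortex. The 10 genes, chosen by symbol as pattern recognition receptors, were Tlr1, Tlr2, Tlr3, Tlr4, Tlr6, Tlr7, Tlr8, Tlr9, Tlr13 and Cd14. All 10 were listed in both tables of the series, among 16536 genes in the GFP table and 16140 genes in the Cre table. The GFP table held 4 libraries of GFP-positive monocytes and 4 libraries of GFP-negative microglia from Cxcr4-GFP reporter mice. The Cre table held 3 libraries each of TdT-positive monocytes from Cxcr4CreER KO mice, TdT-positive monocytes from Cxcr4CreER control mice, TdT-negative microglia from KO mice and TdT-negative microglia from control mice. Cxcr4CreER is an inducible Cre recombinase driven from Cxcr4, and all 4 Cre groups come from this line. Every group had the same lesion, and no uninjured brain was analysed here. Population and reporter signal coincide in both tables, so KO microglia are unlabelled cells of KO mice and nothing in the labels says whether they lost Cxcr4. Age, sex and tamoxifen schedule are not in the labels, and the tag BrKo in the titles of the GFP libraries is not explained. Monocytes and microglia of a GFP replicate came from the same mice, with 2 mice in replicate 1, a pool of 5 mice in replicate 2 and single mice in replicates 3 and 4.

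Toll-like receptors are membrane proteins whose leucine-rich repeats bind microbial molecules and whose inner TIR domain recruits the adaptors Myd88 or Ticam1, which lead to NF-kappaB and interferon regulatory factors. Tlr1, Tlr2, Tlr4 and Tlr6 act at the cell surface on lipids and lipopeptides, while Tlr3, Tlr7, Tlr8, Tlr9 and Tlr13 sense nucleic acids in endosomes. Cd14 is a lipid-anchored surface protein that hands lipopolysaccharide to Tlr4 and its partner Ly96. In injured brain these receptors are studied because dying cells release proteins and nucleic acids that some of them can bind.

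Sequencing depth was 0.617 to 14.9 M reads per library in the GFP table and 9.73 to 56.8 M in the Cre table. Values are the authors' normalized counts, reads per gene divided by a size factor per library, and the tables were normalized separately, so no level is compared between them. A single read was worth 0.104 to 2.58 normalized counts in GFP libraries and 0.375 to 2.19 in Cre libraries. GFP monocytes 3 and GFP microglia 3 and 4 had reads in 3029, 5598 and 3489 genes, against 10422 to 14498 genes in the other 5 GFP libraries. Of 503 genes at 300 or more normalized counts in the other 3 GFP monocyte libraries, 14.3% were under 10 in GFP monocytes 3. GFP results are therefore given with and without these 3 gene-poor libraries. Without them, GFP monocytes 1, 2 and 4 are set against GFP microglia 1 and 2 alone, which came from 2 and 5 mice. No microglial library of a single mouse then remains. In the same measure of genes under 10, control monocytes 2 missed 5.53% of 4250 genes, against 0.202% to 2.16% in the other 11 Cre libraries. Cxcr4 averaged 777 ± 237 normalized counts in KO monocytes and 1227 ± 91.4 in control monocytes (SD, n = 3 each), and the groups did not overlap (exact permutation test, two-sided p = 0.1, the smallest that 3 against 3 allows). The summed level of 8 microglial markers was 19470 to 34629 in KO monocytes and 19873 to 29098 in control monocytes, against 221220 to 268774 in KO microglia and 170882 to 282568 in control microglia. The summed level of 8 monocyte markers was 258313 to 331761 in KO monocytes and 256702 to 273649 in control monocytes, against 14811 to 16943 in KO microglia and 12411 to 19621 in control microglia. In these bulk libraries fewer cells of a type and less RNA per cell cannot be told apart.

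Within every group Cd14 had the highest level per kilobase of its longest coding transcript, and Tlr2 came next. In KO monocytes the levels per kilobase were 21700 ± 7578 normalized counts for Cd14, 1963 ± 109 for Tlr2, 618 ± 28.1 for Tlr13 and 546 ± 226 for Tlr7 (SD, n = 3). The remaining levels in KO monocytes ran down from 221 ± 207 for Tlr1 over 100 ± 85.4 for Tlr6, 60.2 ± 83.1 for Tlr8, 55.1 ± 48.9 for Tlr3 and 24.6 ± 34.9 for Tlr4 to 1.88 ± 2.91 for Tlr9. In that order the steps after Cd14 and after Tlr2 exceeded the sum of both SDs, and no other step did. Control monocytes had 23330 ± 7697 for Cd14 and 2112 ± 412 for Tlr2 per kilobase, followed by Tlr7, Tlr13, Tlr1, Tlr4, Tlr8, Tlr6, Tlr3 and Tlr9, with steps of that size after Cd14, Tlr2 and Tlr13. In KO microglia the level per kilobase was 7957 ± 2022 for Cd14, 1456 ± 182 for Tlr2, 934 ± 110 for Tlr7, 700 ± 334 for Tlr13 and 296 ± 114 for Tlr3. Control microglia had the same first 5 genes in the same order, from 7148 ± 2019 for Cd14 to 405 ± 123 for Tlr3, with Tlr1, Tlr4, Tlr6 and Tlr9 below and Tlr8 at 0. Such steps followed Cd14, Tlr2 and Tlr6 in KO microglia and Cd14, Tlr3 and Tlr6 in control microglia. In the GFP table the level per kilobase of Cd14 was 792 ± 316 in monocytes and 497 ± 152 in microglia (SD, n = 4 each). In order of mean level Tlr8 was number 5 in GFP monocytes and last in GFP microglia. Tlr3 was last in GFP monocytes and number 6 in GFP microglia. In GFP microglia only the step above Tlr8 exceeded the sum of both SDs. In GFP monocytes only the step below Cd14 did, so the last place of Tlr3 there was not set apart from its neighbours.

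**Figure D1:**
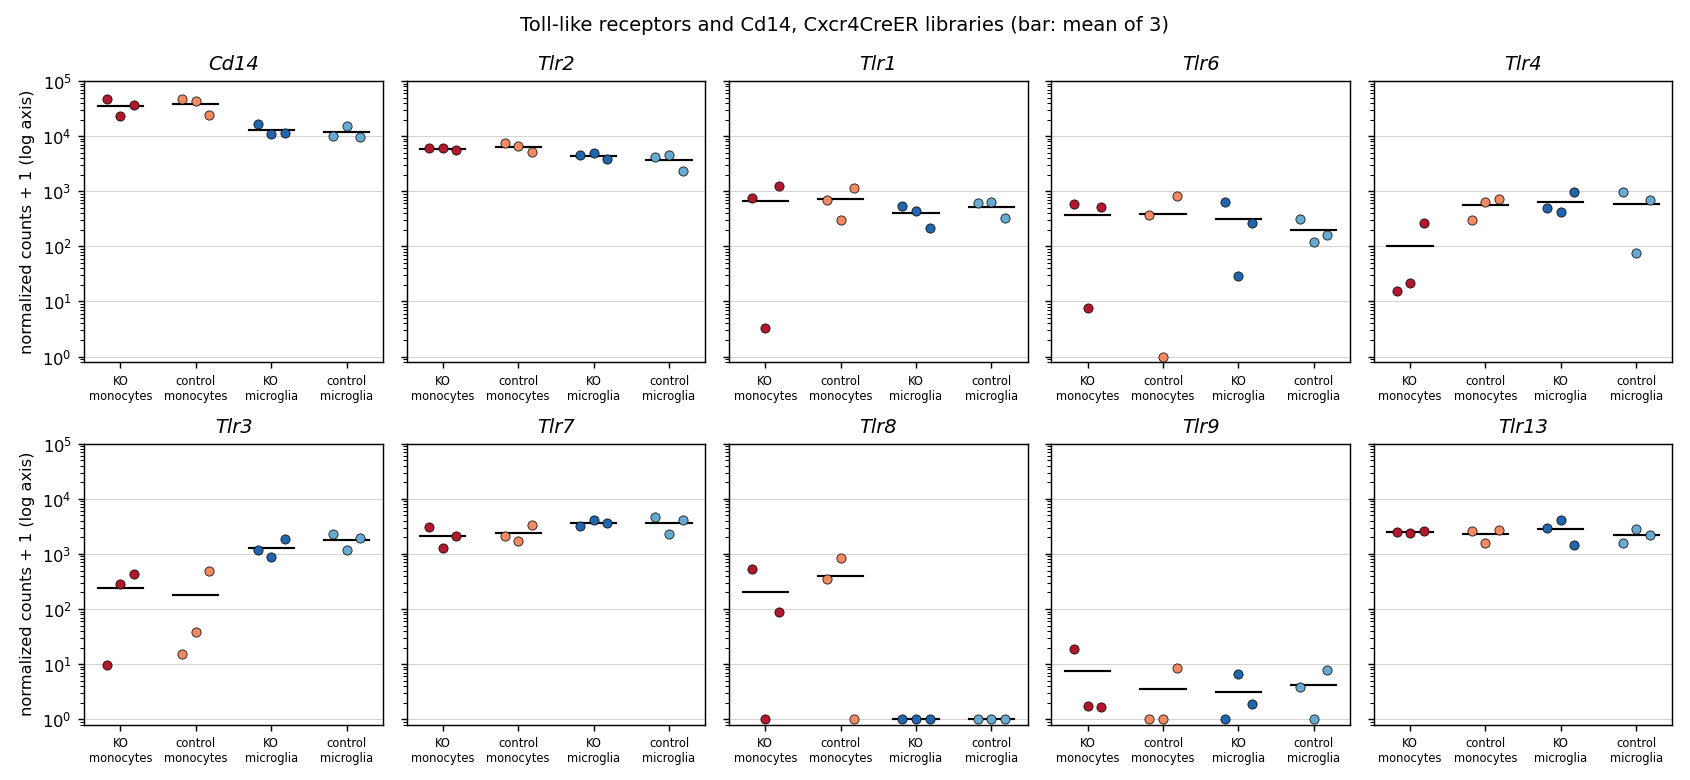
Normalized counts + 1 on a log axis of the 10 genes in the 12 Cxcr4CreER libraries, with KO and control monocytes left of KO and control microglia; points are libraries and bars are means of 3. Cd14 is higher and Tlr3 lower in all 6 monocyte libraries than in all 6 microglial libraries, Tlr8 has reads in 4 monocyte libraries and none in microglia, and Tlr9 stays at or under 18.2 normalized counts throughout.

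Cd14 was higher in monocytes than in microglia in both genotypes, and was the 1 receptor gene that limma called higher in each. KO monocytes had 47536, 22722 and 36578 normalized counts of Cd14 and control monocytes had 48168, 42632 and 24055. KO microglia had 16871, 10825 and 11478 and control microglia had 10198, 15531 and 9460. Every monocyte library lay above every microglial library, and the means over both genotypes were 36948 ± 11305 in monocytes and 12394 ± 3054 in microglia (SD, n = 6 each), a ratio of 2.98. The log2 fold of monocytes over microglia was 1.41 (SE 0.33, adjusted p = 0.0257) in KO mice and 1.68 (SE 0.33, adjusted p = 0.0107) in control mice by limma with Benjamini-Hochberg adjustment over all 12432 genes tested. Over both genotypes, which is the mean of those contrasts and not a further one, it was 1.55 (SE 0.24, adjusted p = 0.00096), higher in 6 of 6 monocyte libraries. Among the 9 receptor genes tested in the Cre table Cd14 was the only one limma called higher in KO mice, where 3.85% of all tested genes were called higher and 2.98% lower. The same held in control mice, where 3.46% of all tested genes were called higher and 3.06% lower. None was called lower in either genotype by limma, edgeR or, in KO mice, DESeq2, which called Tlr3 lower in control mice. At an unadjusted p under 0.05 there were 3 genes in KO mice (Cd14, Tlr3 and Tlr4) and 4 in control mice (Cd14, Tlr2, Tlr3 and Tlr8), where 19.3% of all tested genes passed this cut in KO mice and 19.5% in control mice. The KO call was lost with CPM scaling, where the log2 fold was 1.16 (adjusted p = 0.0872), and without KO microglia 2, KO microglia 3, KO monocytes 1 or KO monocytes 3, where the log2 fold was 1.17 to 1.36 (adjusted p = 0.0788 to 0.101); over all its 21 alternatives the adjusted p ran from 0.002 to 0.101. The control call was lost with only the 2 groups in the fit (log2 fold 1.68, adjusted p = 0.0512) and in none of its other alternatives, whose adjusted p began at 0.000138. The summed level of 8 neutrophil markers, cells that also carry Cd14, was 3021 to 13430 in KO monocytes and 3065 to 5936 in control monocytes, against 1373 to 1892 in KO microglia and 754 to 1748 in control microglia. All 8 had reads in both monocyte groups, while Ly6g, Mmp8, Ngp and Ltf were at 0 in all microglial libraries. The summed level of 5 markers of border-associated macrophages was 39537 to 49509 in KO monocytes and 44080 to 52476 in control monocytes, against 1493 to 1801 in KO microglia and 1581 to 3016 in control microglia. Most of it was Ms4a7, at 39586 ± 5591 in KO monocytes and 40151 ± 2047 in control monocytes. Lyve1 was at 0 in all 6 monocyte libraries, while the other markers, Mrc1, Cd163 and Pf4, had reads in both monocyte groups. The summed level of 5 dendritic cell markers was 1501 to 3714 in KO monocytes and 1124 to 4505 in control monocytes, against 104 to 386 in KO microglia and 23.9 to 457 in control microglia, with Clec9a at 0 in both microglial groups and in control monocytes. The part of these cell types in the Cd14 result was not tested.

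In the GFP table Cd14 had 1495, 1679, 533 and 1491 normalized counts in monocytes and 1085, 706, 948 and 526 in microglia. GFP monocytes 3 lay among the microglia, and the other 3 monocyte libraries lay above all 4 microglial ones. The log2 fold was 0.60 (SE 0.49, adjusted p = 0.999, limma), and without the 3 gene-poor libraries it was 0.83 (SE 0.22, adjusted p = 0.028, from 0.028 to 1 over 16 alternatives). Of the 10 receptor genes, all tested in the GFP table, none was called by limma, where 0.415% of the 7706 tested genes were called higher in monocytes and 0.493% lower. At an unadjusted p under 0.05 there were 2, Tlr8 and Tlr13, and both edgeR and DESeq2 called 1, Tlr8. These cuts were passed by 7.53% of all tested genes (unadjusted p, limma), 1.3% (edgeR) and 2.35% (DESeq2). Without those 3 libraries limma called 3, which were Cd14, Tlr3 and Tlr8, where 15.5% of all tested genes were called.

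**Figure D2:**
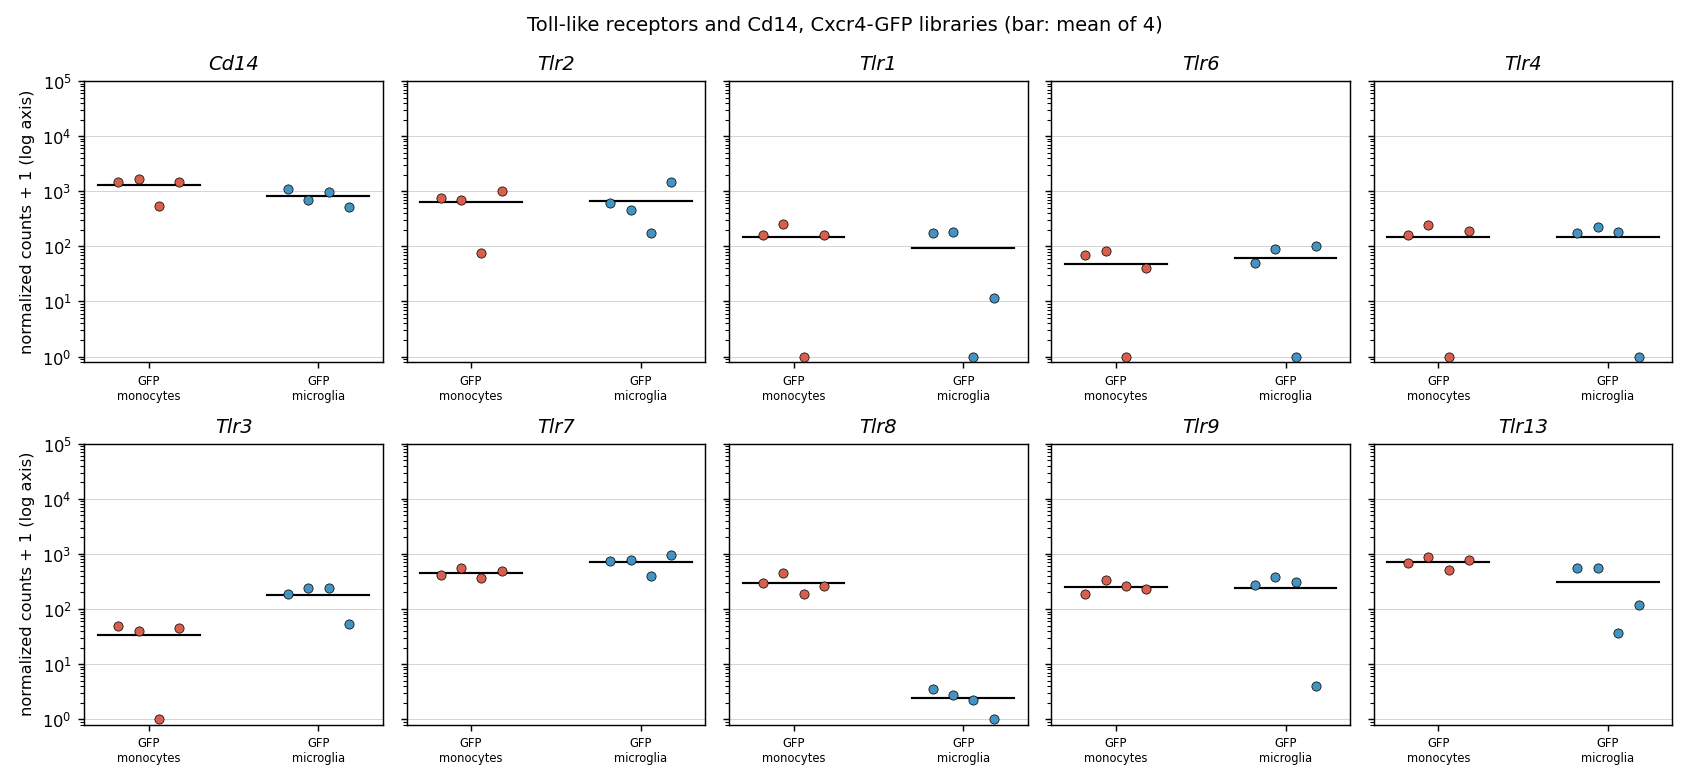
Normalized counts + 1 on a log axis of the 10 genes in the 8 Cxcr4-GFP libraries, monocytes left of microglia; points are replicates 1 to 4 from left to right and bars are means of 4. Tlr8 and Tlr3 are the 2 genes whose populations do not overlap, as held for 9.41% of all genes tested, and GFP monocytes 3 has no reads of Tlr1, Tlr3, Tlr4 and Tlr6.

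Tlr2 recognises bacterial lipopeptides as a dimer with Tlr1 or Tlr6. It had 6196, 6001 and 5554 normalized counts in KO monocytes and 7529, 6511 and 5058 in control monocytes, against 4511, 4867 and 3788 in KO microglia and 4096, 4552 and 2295 in control microglia. All 6 monocyte libraries exceeded all 6 microglial libraries, by a narrow margin between control monocytes 3 and KO microglia 2. The log2 fold over both genotypes was 0.64 (SE 0.20, 95% limits 0.20 to 1.08) and missed the threshold (adjusted p = 0.0535, limma), while DESeq2 called it at 0.62 (adjusted p = 0.0171). With CPM scaling it was 0.43 (adjusted p = 0.24), and these p-values were the ends of their range over 20 alternatives. Among GFP libraries Tlr2 had 746, 706, 75.3 and 1003 normalized counts in monocytes and 604, 458, 177 and 1471 in microglia, and the populations overlapped.

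The dimer partners Tlr1 and Tlr6 had a wide spread within groups. Tlr1 had 761, 2.25 and 1241 normalized counts in KO monocytes and 696, 298 and 1152 in control monocytes, against 545, 440 and 210 in KO microglia and 612, 639 and 329 in control microglia. Tlr6 had 576, 6.75 and 521 in KO monocytes and 367, 0 and 812 in control monocytes, against 625, 28.1 and 265 in KO microglia and 318, 119 and 156 in control microglia. KO monocytes 2, the library with the most counted reads of the table, was the lowest of its group for both genes. Neither was called in any comparison, and over both genotypes the 95% limits of the log2 fold of monocytes over microglia ran from -3.18 to 2.13 for Tlr1 and from -4.56 to 2.77 for Tlr6. These genes are neighbours that share part of their sequence. In all, 607 stretches of 31 bases occur in transcripts of both, 18.3% of those of Tlr1 and 16.4% of those of Tlr6. Reads from the shared stretches could be split between them.

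Tlr4 is the lipopolysaccharide receptor that Cd14 serves. It had 14.8, 21.0 and 264 normalized counts in KO monocytes and 297, 650 and 720 in control monocytes, against 488, 421 and 984 in KO microglia and 948, 75.8 and 704 in control microglia. KO monocytes lay below control monocytes and below KO microglia in all 3 libraries, and control monocytes overlapped control microglia. Of all genes tested, 8.82% did not overlap between KO and control monocytes, and 27.5% between KO monocytes and KO microglia. Tlr4 averaged 100 ± 142 in KO monocytes and 631 ± 308 in KO microglia (SD, n = 3 each), a log2 fold of -3.70 (SE 1.16, adjusted p = 0.0855, limma) that did not pass the test, and in control mice the log2 fold was 0.48 (SE 1.16, adjusted p = 0.872). Without KO monocytes 3 the KO contrast was -4.98 (adjusted p = 0.0221, from 0.0221 to 0.27 over 21 alternatives). Its secreted partner Ly96 averaged 1319 ± 184 in KO monocytes and 1429 ± 879 in control monocytes, against 908 ± 245 in KO microglia and 997 ± 413 in control microglia, and was not called. Tlr4 in the GFP table had 157, 245, 0 and 187 normalized counts in monocytes and 176, 221, 185 and 0 in microglia.

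Tlr3, the receptor for double-stranded RNA that signals through Ticam1, was the receptor gene called lower in monocytes. It had 8.68, 288 and 432 normalized counts in KO monocytes and 14.2, 37.3 and 487 in control monocytes, against 1164, 884 and 1859 in KO microglia and 2257, 1196 and 1906 in control microglia. No monocyte library reached the lowest microglial one. Cd14, Tlr2 and Tlr3 were the 3 receptor genes whose 6 monocyte and 6 microglial libraries did not overlap, as held for 8.97% of all genes tested. Over both genotypes the means were 211 ± 220 in monocytes and 1544 ± 537 in microglia (SD, n = 6 each), so that microglia had 7.31 times the monocyte mean. The log2 fold was -4.13 (SE 1.01, adjusted p = 0.0165, limma), lower in 6 of 6 monocyte libraries, and edgeR gave -2.85 (adjusted p = 0.071), the 1 of 20 alternatives that did not call it. By genotype it was -3.54 (SE 1.43, adjusted p = 0.19) in KO mice and -4.72 (SE 1.43, adjusted p = 0.0782) in control mice. Over both genotypes Cd14 was thus the 1 receptor gene of 9 called higher and Tlr3 the 1 called lower, where 6.99% of all tested genes were called higher and 7.27% lower. Tlr3 in the GFP table had 48.9, 39.5, 0 and 43.6 normalized counts in monocytes and 183, 242, 241 and 51.9 in microglia. These groups did not overlap either, but the log2 fold of -3.16 (SE 1.58) was not called (adjusted p = 0.701, limma); without the 3 gene-poor libraries it was -2.24 (SE 0.33, adjusted p = 0.000803, from 0.000803 to 1 over 16 alternatives). An exon of a predicted gene on the opposite strand shares 381 bases with Tlr3, and strand use in the counting is not stated.

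Tlr8 was the receptor gene with reads in monocytes and almost none in microglia. In human, TLR8 senses single-stranded RNA in endosomes. GFP monocytes had 298, 451, 184 and 262 normalized counts of Tlr8, and GFP microglia had 2.58, 1.72, 1.25 and 0, from 5054 reads in all against 6. The groups were far apart (exact permutation test, two-sided p = 0.029, the smallest that 4 against 4 allows), and the ratio of the means was 215. The log2 fold was 7.04 (SE 1.78) and narrowly missed the threshold (adjusted p = 0.0546, limma), higher in 4 of 4 libraries. It passed with edgeR (log2 fold 7.66, adjusted p = 0.00497), DESeq2 (7.78, adjusted p = 2.83e-08) and without the 3 gene-poor libraries (6.72, adjusted p = 1.8e-06), and the adjusted p over all 16 alternatives ran from 2.83e-08 to 0.288. In the Cre table Tlr8 had 532, 0 and 87.5 normalized counts in KO monocytes and 350, 838 and 0 in control monocytes, and no read in any of the 6 microglial libraries. It was seen in 4 of 6 monocyte libraries, so the populations overlap at 0. With the microglial group set to its floor, 3 reads in all, the monocyte mean was at least 192-fold higher in KO mice, at least 476-fold higher in control mice and at least 643-fold higher over both genotypes. These bounds leave out the spread of monocytes, at 206 ± 285 in KO and 396 ± 421 in control mice (SD, n = 3 each). The exact permutation test gave two-sided p = 0.4 in each genotype and 0.061 over both. By limma the adjusted p was 0.296 in KO mice and 0.214 in control mice. Tlr8 was not called over both genotypes by limma (adjusted p = 0.0593), but was by edgeR (adjusted p = 0.0428) and DESeq2 (adjusted p = 5.79e-05). These tests called 11.6% (edgeR) and 21.2% (DESeq2) of all tested genes. Limma called Tlr8 without control monocytes 3 (adjusted p = 0.00825) or KO monocytes 2 (adjusted p = 0.0176), the libraries at 0. With microglia at 0 throughout, leaving out a monocyte library at 0 raises this contrast by construction. Over its 20 alternatives the adjusted p ran from 5.79e-05 to 0.125.

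The promoters of Tlr8 and Tlr3 are printed because these genes lay on opposite sides of the population contrast in both tables. They are RefSeq sequences of build GRCm38.p6, from 250 bases before to 50 bases after the start, and 7 of the 10 genes had such an entry. Both lie on the minus strand, Tlr8 at chrX:167264280-167264579 and Tlr3 at chr8:45410331-45410630. Capitals mark matches, on either strand, to GAGGAA (a PU.1-type core, in 28.3% of 32851 promoters), AANNGAAA (an interferon regulatory factor-type element, 23.9%), TTGCNNAA (a C/EBP-type element, 10.8%), TGANTCA (an AP-1-type element, 7.81%) and the kB consensus (4.51%).
Tlr8 promoter: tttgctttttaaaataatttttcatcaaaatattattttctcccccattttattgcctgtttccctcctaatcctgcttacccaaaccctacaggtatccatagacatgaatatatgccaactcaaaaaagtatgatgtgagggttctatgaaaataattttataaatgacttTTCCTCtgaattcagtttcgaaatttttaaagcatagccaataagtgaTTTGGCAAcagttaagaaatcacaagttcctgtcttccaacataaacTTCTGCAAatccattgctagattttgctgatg
Tlr3 promoter: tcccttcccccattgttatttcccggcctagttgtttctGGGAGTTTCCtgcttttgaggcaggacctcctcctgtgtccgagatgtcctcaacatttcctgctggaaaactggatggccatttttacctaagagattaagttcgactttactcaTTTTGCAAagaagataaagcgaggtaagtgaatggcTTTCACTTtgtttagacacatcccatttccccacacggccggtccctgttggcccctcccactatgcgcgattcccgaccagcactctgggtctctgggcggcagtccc
Tlr8 held 1 match to GAGGAA and 2 to TTGCNNAA, and Tlr3 held 1 match each to AANNGAAA, TTGCNNAA and the kB consensus. None of these matches overlapped another.

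Tlr7 and Tlr13 both sense single-stranded RNA, in the case of Tlr13 bacterial ribosomal RNA, and were well measured in every library of the Cre table. Tlr7 had 3037, 1275 and 2072 normalized counts in KO monocytes and 2115, 1705 and 3305 in control monocytes, against 3235, 4086 and 3595 in KO microglia and 4725, 2298 and 4073 in control microglia. KO monocytes all lay below KO microglia, whereas control monocytes overlapped control microglia. Of all genes tested, 27.5% did not overlap between the populations in KO mice and 22.1% in control mice. The log2 fold of Tlr7 over both genotypes was -0.74 (SE 0.28, adjusted p = 0.105, limma), and -0.96 (adjusted p = 0.0414, from 0.0414 to 0.281 over 20 alternatives) with CPM scaling. Tlr13 had 2471, 2422 and 2639 in KO monocytes and 2621, 1584 and 2753 in control monocytes, against 2936, 4148 and 1437 in KO microglia and 1596, 2809 and 2185 in control microglia. The Tlr13 log2 fold over both genotypes was 0.01 (95% limits -0.61 to 0.63). Among GFP libraries Tlr7 had 406, 563, 371 and 497 in monocytes and 757, 788, 392 and 948 in microglia, and Tlr13 had 680, 884, 506 and 763 in monocytes and 545, 562, 36.2 and 116 in microglia. The Tlr13 log2 fold of 1.86 (SE 0.82, adjusted p = 0.547, limma) was 0.48 without the 3 gene-poor libraries, which include the 2 low microglial ones.

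Tlr9, the receptor for unmethylated CpG DNA, was measured in the GFP table but nearly absent from the Cre table. It had 184, 336, 266 and 225 normalized counts in GFP monocytes and 276, 384, 311 and 2.96 in GFP microglia, with a log2 fold of 1.21 (SE 1.21, adjusted p = 0.999, limma) that was -0.44 without the 3 gene-poor libraries. In the Cre libraries Tlr9 had 0 to 21 reads, and was the receptor gene that failed the filter for testing. Set against Tlr7 within the same library, there were 0.365 to 0.793 reads of Tlr9 per read of Tlr7 in 7 of the 8 GFP libraries, 0.00313 in GFP microglia 4 and 0 to 0.006 in the 12 Cre libraries. The tables also differ in RNA selection (total RNA for GFP, polyA RNA for Cre), kit, counting and mice, and these cannot be told apart.

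**Figure D3:**
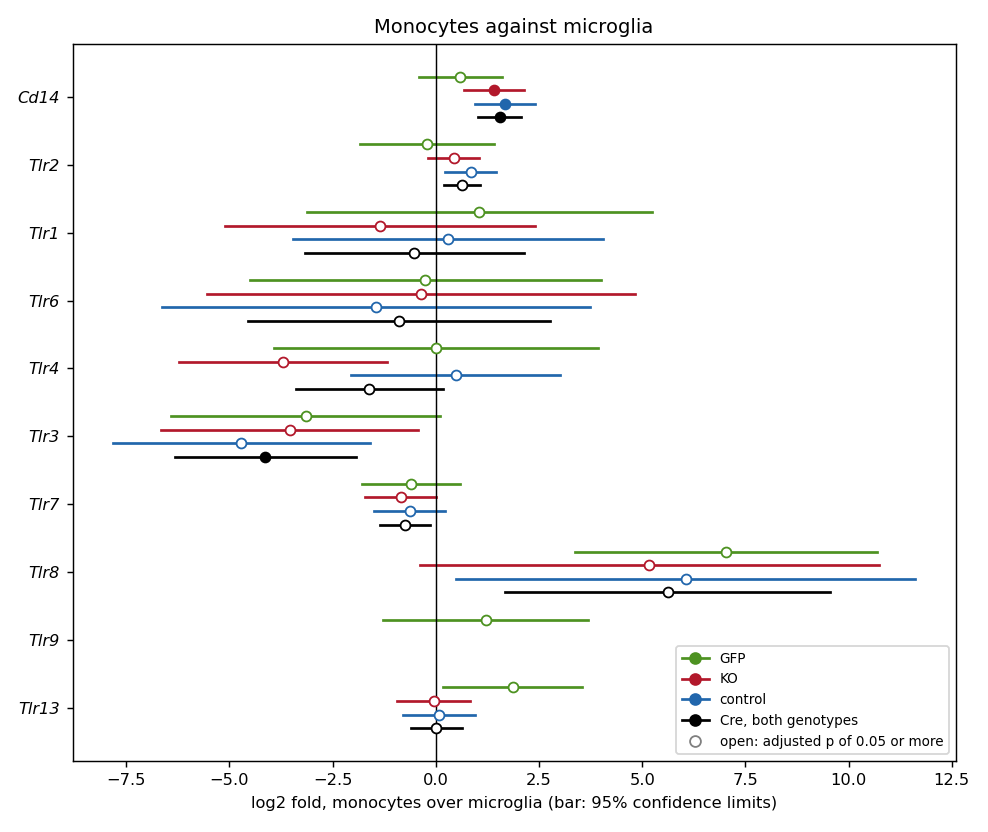
Log2 fold of monocytes over microglia with 95% confidence limits from limma for each gene in the GFP, KO and control contrasts and over both Cre genotypes; filled points have an adjusted p under 0.05. Cd14 is filled in the 3 Cre contrasts and Tlr3 over both genotypes, while the intervals of Tlr1 and Tlr6 span several log2 units on both sides of 0.

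The pattern most like that of Cd14 across the 12 Cre libraries, by the root mean square difference of centred log2 values among 9428 genes, was that of Nfkbia, the inhibitor that NF-kappaB induces (0.22), followed by Ier3, an immediate early gene (0.24). Nfkbia averaged 70720 ± 19320 normalized counts in monocytes and 29640 ± 4540 in microglia, and Ier3 averaged 10200 ± 2476 in monocytes and 3925 ± 1052 in microglia (SD, n = 6 each). For Tlr3 the nearest genes were farther off, Mcm7, a replication helicase subunit (0.86), and Csmd3, a membrane protein (0.96). Mcm7 averaged 27.0 ± 48.9 in monocytes and 206 ± 135 in microglia, and Csmd3 averaged 145 ± 184 in monocytes and 930 ± 499 in microglia.

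Among the other mouse Toll-like receptor genes, Tlr12, which in mouse binds a parasite profilin, was at 0 in all 6 Cre monocyte libraries. It had 52.9, 41.2 and 118 normalized counts in KO microglia and 61.9, 13.8 and 52.1 in control microglia, so that monocytes were at least 148-fold lower taking 3 reads over the group as the floor (adjusted p = 0.000333, limma). In GFP libraries it was at 0 in all 4 monocyte libraries and in microglia 3 and 4, with 23.2 and 55.1 in microglia 1 and 2. The flagellin receptor Tlr5 was not called.

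Of the 8 co-receptors and chaperones, 7 were tested in the Cre table. In monocytes over both genotypes 1 was called higher and 2 lower, where 6.99% of all tested genes were called higher and 7.27% lower. Their median log2 fold was -0.59 beside -0.30 over all genes tested. Cd36, a scavenger receptor that assists Tlr2 and Tlr6, averaged 3128 ± 1922 normalized counts in KO monocytes and 3575 ± 938 in control monocytes, against 199 ± 75.3 in KO microglia and 332 ± 204 in control microglia (log2 fold 3.73, SE 0.49, adjusted p = 0.000338). Ly86, which pairs with the Toll-like protein Cd180, averaged 22205 ± 1838 in KO monocytes and 19585 ± 1482 in control monocytes, against 46577 ± 3428 in KO microglia and 51397 ± 12061 in control microglia (log2 fold -1.22, SE 0.12, adjusted p = 4.09e-05). Hsp90b1, the chaperone most Toll-like receptors need for folding, was lower by a smaller amount (log2 fold -0.59, SE 0.16, adjusted p = 0.0262). Unc93b1, which carries the nucleic acid receptors to endosomes, was not called (log2 fold -1.0, SE 0.52, adjusted p = 0.235).

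Downstream, 2 of 20 adaptors and kinases were called in monocytes over both genotypes, higher by limma, with a median log2 fold of 0.33. For this and the next lists, 6.99% of all tested genes were called higher and 7.27% lower. The median log2 fold of all tested genes was -0.30. They were Irak4, the kinase that joins Myd88 (log2 fold 1.54, SE 0.32, adjusted p = 0.00708), and Ikbkb, which phosphorylates the NF-kappaB inhibitors (1.66, SE 0.35, adjusted p = 0.00777). Myd88 itself averaged 790 ± 397 normalized counts in KO monocytes and 1061 ± 488 in control monocytes, against 608 ± 219 in KO microglia and 532 ± 220 in control microglia, and was not called. Of 8 negative regulators tested, 3 were called, all higher (median log2 fold 0.80): Nfkbia (1.22, SE 0.19, adjusted p = 0.00102), the MAP kinase phosphatase Dusp1 (0.99, SE 0.21, adjusted p = 0.00758) and Irak3, which blocks Irak signalling (5.07, SE 1.34, adjusted p = 0.025). Irak3 averaged 164 ± 158 in KO monocytes and 695 ± 189 in control monocytes, against 61.0 ± 92.2 in KO microglia and 24.0 ± 41.5 in control microglia. Of 9 transcription factors 1 was called, Irf7, the interferon regulatory factor of the Tlr7 and Tlr9 pathway, higher with a log2 fold of 2.88 (SE 0.36, adjusted p = 0.000205).

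Of 11 cytosolic pattern recognition receptors, 2 were called higher in monocytes over both genotypes and 1 lower (median log2 fold 0.01). Of all tested genes 6.99% were called higher and 7.27% lower (median log2 fold -0.30), which also holds for the lists below. The inflammasome receptor Nlrc4 rose by 4.62 on the log2 scale (SE 1.08, adjusted p = 0.0131) and the RNA sensor Ddx58 by 1.10 (SE 0.28, adjusted p = 0.0197), while the DNA pathway adaptor Tmem173 was lower at -1.35 (SE 0.39, adjusted p = 0.0368). Of 17 genes that Toll-like receptor signalling is known to induce, 7 were called higher and 5 lower (median log2 fold 0.14), so the list was split. Il1b was higher in monocytes (log2 fold 2.64, SE 0.19, adjusted p = 3.44e-06), as were Cxcl2 (3.89, SE 0.33, adjusted p = 1.39e-05) and Ptgs2 (4.12, SE 0.38, adjusted p = 2.41e-05), and Il1a was lower (-2.02, SE 0.26, adjusted p = 0.00031). Il1a was also the 1 gene called of the 12 of this list tested in the GFP table (-5.44, SE 1.18, adjusted p = 0.0178). There 0.415% of all tested genes were called higher and 0.493% lower. Tnf and Il6 were not called. Of 7 proposed endogenous ligands tested 4 were called, all higher (median log2 fold 3.64): Fn1 (3.64, SE 0.44, adjusted p = 0.000166), S100a9 (9.95, SE 1.30, adjusted p = 0.000313), Vcan (7.19, SE 1.23, adjusted p = 0.00219) and S100a8 (9.32, SE 1.61, adjusted p = 0.0023). S100a8 and S100a9 are also abundant in neutrophils, whose marker sums are given beside Cd14.

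The receptors of KO mice were compared with those of control mice in each population; Cxcr4 transcript was still present in KO monocytes, as given above, and averaged 0.304 ± 0.526 normalized counts in KO microglia and 2.63 ± 4.55 in control microglia (SD, n = 3 each). None of the 9 receptor genes tested was called by limma in monocytes, where 0.0402% of all tested genes were called, nor in microglia, where 0.0322% were called. At an unadjusted p under 0.05 there was 1 in monocytes, Tlr4, and 0 in microglia, and edgeR and DESeq2 called 0 in both. That p was reached by 6.08% of all tested genes in monocytes and 3.53% in microglia, and DESeq2 called 2.72% of all tested genes in monocytes and 0.869% in microglia, while edgeR called 0. In monocytes the log2 fold of KO over control was -0.11 (95% limits -0.84 to 0.62) for Cd14, -0.09 (-0.71 to 0.53) for Tlr2, -0.19 (-1.05 to 0.67) for Tlr7 and 0.16 (-0.72 to 1.04) for Tlr13. In microglia it was 0.16 (-0.57 to 0.89) for Cd14, 0.32 (-0.30 to 0.94) for Tlr2, 0.03 (-0.83 to 0.90) for Tlr7 and 0.28 (-0.60 to 1.16) for Tlr13. For Tlr1, Tlr3 and Tlr6 the limits were wider than 6 log2 units in both populations, so that large changes in either direction were not detectable here.

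The Tlr4 values given above averaged 100 ± 142 normalized counts in KO monocytes and 555 ± 227 in control monocytes (SD, n = 3 each). The log2 fold was -3.52 (SE 1.16, 95% limits -6.05 to -0.996, unadjusted p = 0.0104 by limma, adjusted p = 0.621), and the difference failed the correction although lower in 3 of 3 libraries. The 2 lowest of these, KO monocytes 1 and 2, had 17 and 56 reads of Tlr4. They were also the monocyte libraries with a high level of Xist, the X-inactivation transcript. KO monocytes 2 was low in other genes too, with 6 reads of Tlr1, 18 of Tlr6, 0 of Tlr8 and 10 of Cd180. KO monocytes 1 had 877, 664, 613 and 736 reads of these genes. The part of these traits in the Tlr4 values was not tested. Without control monocytes 2 and KO monocytes 2, a comparison added after seeing the data, the log2 fold of Tlr4 was -2.84 (adjusted p = 0.895, from 0.225 to 0.921 over 21 alternatives). Tlr4 was the 1 receptor gene for which KO and control monocytes did not overlap, as held for 8.82% of all genes tested in this comparison. In microglia the log2 fold of Tlr4 was 0.66 (SE 1.16, adjusted p = 1). The genotype-by-population term, which tests whether the monocyte to microglia contrast differed between KO and control mice, was -4.18 for Tlr4 (SE 1.64, unadjusted p = 0.0255, adjusted p = 0.999, limma). No receptor gene was called for this term by limma, edgeR or DESeq2, 1 was at an unadjusted p under 0.05, and 0% of all genes tested were called by limma, with 590 genes at an unadjusted p under 0.05, 0 called by edgeR and 276 by DESeq2. Cd180, a Toll-like protein of the co-receptor list, averaged 308 ± 318 in KO monocytes and 979 ± 92.3 in control monocytes, and was not called (adjusted p = 0.781).

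The Cre groups were not alike in Xist. It was at 2830, 3348 and 118 normalized counts in KO monocytes and 104, 180 and 263 in control monocytes, against 5726, 6014 and 109 in KO microglia and 87.2, 4453 and 191 in control microglia. Tlr7, Tlr8 and Tlr13 are X-linked. Tlr4, which is autosomal, was lowest in the libraries of high Xist in both populations. KO monocytes 1 and 2 had 14.8 and 21.0 normalized counts of Tlr4, against 264 to 720 in the other 4 monocyte libraries. KO microglia 1 and 2 and control microglia 2 had 488, 421 and 75.8, against 704 to 984 in the other 3 microglial libraries. Among microglia Tlr4 was not alone in this. In the same libraries of high Xist Tlr3 was also lower (884 to 1196, against 1859 to 2257). Tlr2 (4511 to 4867, against 2295 to 4096) and Tlr13 (2809 to 4148, against 1437 to 2185) were higher there. Among monocytes Tlr2, Tlr3 and Tlr13 overlapped between libraries of high and low Xist. The share of all genes that part in this way was not computed. Among monocytes high Xist was seen in KO libraries alone. The part of this imbalance in the KO against control values of Tlr4 and of the X-linked genes was not tested.

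**Figure D4:**
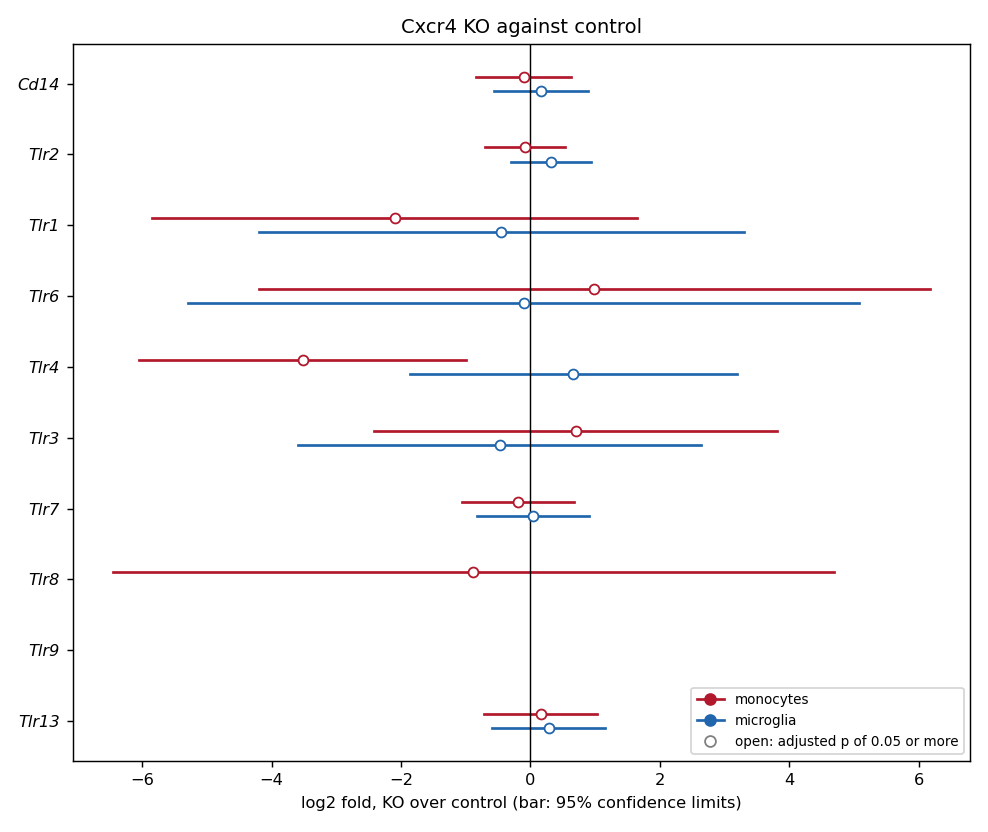
Log2 fold of KO over control with 95% confidence limits from limma for each gene in monocytes and in microglia; all points are open, since none had an adjusted p under 0.05. Tlr9 was not tested and Tlr8 had no reads in microglia. The Tlr4 interval in monocytes lies below 0, from -6.05 to -0.996, and those of Cd14, Tlr2, Tlr7 and Tlr13 stay within about 1.16 of 0.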

How the data were processed

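RNA from sorted brain monocytes and microglia was sequenced in 20 libraries. Per the labels' protocols, GFP libraries were made from total RNA (Nugen Ovation SoLo) and Cre libraries from polyA RNA (SMART-Seq2). Per the submitters' processing notes, the GFP table names CASAVA 1.82 and DESeq2, and the Cre table names kallisto, bcl2fastq 2.20 and DESeq2. Not given in the sources used here are the GFP aligner, build and annotation. The deposited signal is normalized counts, reads divided by a size factor by the authors. All nonzero values (100%) were whole numbers of reads to within 0.01, so reads were recovered for DESeq2 1.42.0 and edgeR 4.0.16 as alternatives. In the Cre table, 649 altered gene names were restored.

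Genes at 10 or more in at least 4 (GFP) or 3 (Cre) libraries were tested, 7706 and 12432 genes. The test was limma 3.58.1 in R 4.3.3 (trend, two-sided) on log2(value + 1), with Benjamini-Hochberg adjustment over all genes tested and a threshold of 0.05. Adding 1 to each value shrinks fold changes between low values. A library near 0 pulls down the mean log2 value of its group, so a log2 fold can also exceed or oppose the ratio of means. In control mice Tlr6 had a log2 fold of -1.44 beside a ratio of means of 1.99. Over both genotypes Tlr3 had a log2 fold of -4.13, with microglia at 7.31 times the monocyte mean. The 4 Cre groups shared 1 spread. The script was tested on simulated data. Floors (3 reads) and counts cover counting error only, because reads that carry no molecular identifier can be copies of 1 molecule. Transcript lengths come from GENCODE M21.

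The labels tie libraries to the same animal or pool: 4 pairs in the GFP table, whose deviations from the group means correlated at 0.238, 0.198, 0.127 and -0.113, and 4 in the Cre table, at -0.0555 to 0.00955. Libraries of separate animals measure the spread between animals. All 10 receptor genes were named, with up to 4 called genes per list, smallest p first. The genes and lists were chosen with earlier results of these data known. Alternatives were other scalings, tests, filters, pseudocounts, a block for the animal, and libraries left out.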

Additional observations from a re-analysis of the deposited data

Results flagged for a closer look

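Cd14 in GFP monocytes 3 was at 532.6 normalized counts, the lowest of its group, with 1491 to 1679 in the other 3 GFP monocyte libraries. The gap to the next library was 0.836 of the group's range, above Dixon's critical value for 4 libraries at the 95% level. Over the 20 groups of 4 checked, 1 was flagged, and chance flags about 1 in 20. This library also had the fewest detected genes of the table, 3029, and the part of this in the low value was not tested.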

How the results depend on the processing

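The number of receptor genes called moved most in the contrasts of monocytes with microglia. In the GFP table it was 0, and 1 (Tlr8) with CPM scaling, upper quartile scaling, a pseudocount of 10, edgeR or DESeq2, and 3 when GFP monocytes 3 and GFP microglia 3 and 4 were left out together; leaving out 1 library gave 0 to 1, with 1 without GFP microglia 1, GFP microglia 4 or GFP monocytes 3. In KO mice it was 1, and 0 with CPM scaling and 2 with DESeq2 (Cd14 and Tlr8); leaving out 1 library gave 0 to 1, with 0 without KO microglia 2, KO microglia 3 or KO monocytes 1, and without KO monocytes 3 the 1 gene was Tlr4. In control mice it was 1, and 0 with only the 2 groups in the fit, 2 with a pseudocount of 10 (Cd14 and Tlr3) and 4 with DESeq2; leaving out 1 library gave 1 to 3, with 2 without KO monocytes 1 and 3 without control monocytes 3. Over both genotypes it was 2, and 4 with DESeq2 (Cd14, Tlr2, Tlr3 and Tlr8). Leaving out 1 library gave 2 to 4, with 4 without control monocytes 3. Calls also rose over all genes with DESeq2. It called 12.6% of all tested genes in KO mice, 13% in control mice and 21.2% over both genotypes. Limma called 6.83% in KO mice, 6.52% in control mice and 14.3% over both genotypes. The cause of these moves was not tested. Counts for KO against control and for the genotype-by-population term were 0 under every alternative run. No called fold changed sign. Of the alternatives for single genes, 1176 kept their side of the threshold and moved by less than 1 SE where not called, 43 moved by more than 1 SE, 29 gained the call and 7 lost it. With the animal or pool as a replicate block the counts were 0 (GFP), 1 (KO), 1 (control) and 2 (both genotypes), and the block changed no call of a receptor gene. CPM scaling put the median log2 fold of all genes at 0.65 in the GFP table, against 0.51 with the authors' size factors, and at -0.50 over both Cre genotypes, against -0.30. In Cre microglia Tlr8 had no read at 9.73 to 27.2 M counted reads per library. It had 4 reads in GFP microglia 2 at 5.55 M and 108 in GFP monocytes 4 at 0.648 M. The gene-poor libraries had 0.851 to 1.11 M reads, more than GFP microglia 1 and GFP monocytes 4 at 0.617 and 0.648 M. The part of read number in these values was not tested.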
